A study of Homo sapiens with 4 samples.

Results

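The genes described here are the expressed protein-coding genes of the short arm of human chromosome 11. They were chosen by position (gene start below 53.4 Mb on build hg38), by biotype, and by a mean of at least 3 FPKM over the 4 libraries, with 13 genes that pass these limits left out by name. FPKM, the unit of the deposited values, counts fragments per length of gene and corrects for library size. The rule finds 160 genes, the members, among 447 protein-coding genes listed on the arm and 58735 genes listed in all. Just inside the limit lay AMPD3 at a mean of 3.11 FPKM and TCP11L1 at 3.17 FPKM, and just outside it SYT13 at 2.88 FPKM and DNAJC24 at 2.93 FPKM. The arm was picked with its ratios between the doses already known, and the steps were located from the same ratios. Counts and medians over members or stretches are therefore descriptions and carry no test.

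The cells, a line given by the labels as a human lung squamous carcinoma, were sequenced as 2 RNA libraries at 30 Gy and 2 at 0 Gy, where Gy (gray) measures radiation dose. The design text speaks of SK-MES-1-RR, which resists radiotherapy, and of SK-MES-1. No label says which libraries came from which line, whether the dose was given at once or in fractions, or when RNA was taken, so a difference between doses and a difference between lines cannot be told apart. The sources do not call the libraries of a dose separate cultures, and the p-values cover the spread between these libraries alone, and that spread may be technical.

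Recovered depth was 15920861 and 15979341 reads in the 30 Gy libraries and 17261121 and 16773381 reads in the 0 Gy libraries, and mitochondrial genes took 6.63% and 7.13% of reads at 30 Gy and 6.22% and 6.11% at 0 Gy. Squamous markers were mixed. The line had 0 reads in all 4 libraries for 4 of 8 of them, KRT5, KRT6A, DSG3 and SERPINB13. KRT14 had 0 to 4 reads and SOX2 4 to 22 reads per library, while TP63 stood at 3.19 to 4.14 FPKM and PKP1 at 14.8 to 18.3 FPKM. The 8 squamous markers summed to 20.1 and 18.6 FPKM at 30 Gy and to 21.8 and 22.5 FPKM at 0 Gy. The 5 fibroblast markers summed to 78.6 and 72.4 FPKM at 30 Gy and to 62.8 and 63.2 FPKM at 0 Gy, nearly all of it COL1A1, with DCN at 0 reads throughout. Of the lung gland markers NKX2-1 and SFTPC had 0 reads in every library. The part of these marker levels in the results below was not tested.

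A chromosome arm carries many genes with unrelated functions, and what they share is their neighbourhood. When a stretch of chromosome is present in more or fewer copies in one cell population than in another, its genes tend to differ in RNA level by a similar proportion. Single genes that are switched on or off by a signal instead differ from their neighbours. A map of expression ratios along an arm shows both kinds of pattern, but RNA levels do not measure copy number, which was not tested. On the short arm of chromosome 11 lie imprinted genes at the tip, clusters of TRIM genes, and widely used housekeeping genes for secretion, transcription and translation.

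As examples of the start regions of members, 4 promoter windows from RefSeq (GRCh38.p14) are printed. Each runs from 250 bases before to 50 bases after an annotated start, and the steps and calls do not use them. USP47 and FAR1 are the members with a single listed window closest to the first step, on the tip side and beyond it, and FJX1 and CD82 are the member with the lowest and the member with the highest ratio in one and the same stretch. Capitals mark matches, on either strand, to the GC box GGGCGG, the CCAAT box CCAAT, the TATA box TATAAA, the core of the antioxidant response element TGACNNNGC, and the TEAD site GGAATG. The motifs were searched as these letters and their reverse complements.
USP47, chr11:11841722-11842021, plus strand: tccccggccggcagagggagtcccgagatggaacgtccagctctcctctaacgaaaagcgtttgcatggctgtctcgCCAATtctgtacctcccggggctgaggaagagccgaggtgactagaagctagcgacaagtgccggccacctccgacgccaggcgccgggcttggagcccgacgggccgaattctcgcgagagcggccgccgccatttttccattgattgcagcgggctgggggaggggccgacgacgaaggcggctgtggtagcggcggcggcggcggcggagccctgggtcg
FAR1, chr11:13668418-13668717, plus strand: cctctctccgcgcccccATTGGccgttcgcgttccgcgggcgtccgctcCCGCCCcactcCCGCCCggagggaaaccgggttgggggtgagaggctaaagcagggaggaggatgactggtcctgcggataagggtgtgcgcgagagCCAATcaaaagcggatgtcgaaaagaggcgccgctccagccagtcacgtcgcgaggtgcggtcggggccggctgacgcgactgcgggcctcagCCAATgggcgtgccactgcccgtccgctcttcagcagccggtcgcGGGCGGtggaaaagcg
FJX1, chr11:35618210-35618509, plus strand: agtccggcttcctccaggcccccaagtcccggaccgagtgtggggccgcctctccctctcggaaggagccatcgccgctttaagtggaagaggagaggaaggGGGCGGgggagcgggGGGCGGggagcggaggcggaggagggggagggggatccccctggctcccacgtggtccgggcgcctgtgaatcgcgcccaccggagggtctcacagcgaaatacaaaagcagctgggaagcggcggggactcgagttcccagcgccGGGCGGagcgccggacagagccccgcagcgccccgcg
CD82, chr11:44565413-44565712, plus strand: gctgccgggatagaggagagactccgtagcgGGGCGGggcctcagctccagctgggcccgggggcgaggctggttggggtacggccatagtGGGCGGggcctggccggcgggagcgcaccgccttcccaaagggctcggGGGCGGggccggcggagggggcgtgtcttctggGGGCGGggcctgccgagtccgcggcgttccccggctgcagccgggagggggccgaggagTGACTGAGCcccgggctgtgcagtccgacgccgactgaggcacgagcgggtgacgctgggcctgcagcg
These windows hold 0 GC boxes and 1 CCAAT box for USP47, 3 of each for FAR1, 3 GC boxes and 0 CCAAT boxes for FJX1, and 4 GC boxes with 1 antioxidant core for CD82. A match is a description of the letters and does not show that a factor binds there. The table held a window for 129 of the 160 members, 43 of them with more than 1, where the window nearest to the gene's deposited 5′ end was taken. A GC box occurred in 71.3% of the members' windows and in 44.95% of all 35116 windows of the table. The members' median GC content was 65.0%, against 58.7% over all windows. The windows of the table cover 27305 genes, were not limited to expressed protein-coding genes, and can number more than 1 per gene. Members and table are thus unlike sets, and the reason for these differences was not tested. Among the 4 stretches described next, the share with a GC box was 75.9%, 72.2%, 65.8% and 66.7% in order from the tip, and the share with an antioxidant core 17.2%, 11.1%, 15.8% and 6.67%, beside 13.3% of all windows. A CCAAT box was found in 34.5%, 33.3%, 52.6% and 53.3% (34.6% of all windows), a TATA box in 1.72%, 0%, 10.5% and 0% (11.5% of all windows), and a TEAD site in 3.45%, 11.1%, 18.4% and 26.7% (14.03% of all windows). The stretches hold 58, 18, 38 and 15 members with a window, so a single window moves these shares by 1.72 to 6.67 percentage points.

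Along the arm, the ratio of 30 Gy to 0 Gy ran in 4 stretches separated by 3 steps. From the tip to MICAL2, 76 members had a median ratio of 1.09. From PARVA to MUC15, 22 members had a median ratio of 0.479, and each of them was lower at 30 Gy. From CCDC34 to AMBRA1, 43 members had a median ratio of 0.754. From ATG13 to PTPRJ, nearest the centromere, 19 members had a median ratio of 1.02. On the log2 scale of mean FPKM at 30 Gy over mean FPKM at 0 Gy, the 4 medians were 0.12, -1.06, -0.41 and 0.03, and the median of all 13379 genes tested was -0.00092. The steps were placed by dividing the members, in order of gene start, into runs of at least 5 around their medians, with a penalty for every added run.

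**Figure D1:**
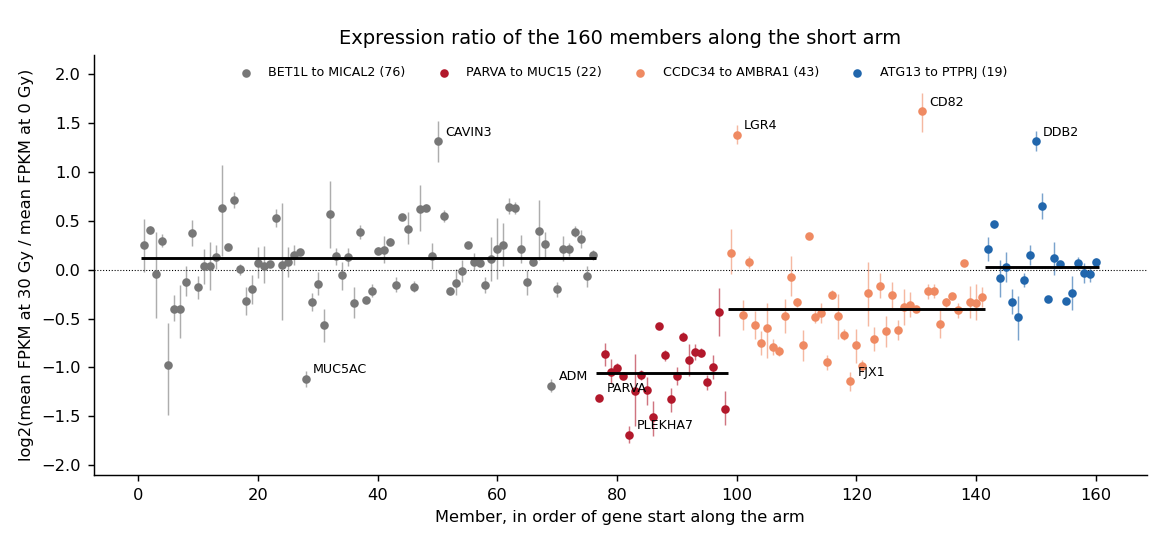
Log2 ratio of mean FPKM at 30 Gy over 0 Gy (y axis) for the 160 members in order of gene start from the tip of the arm (x axis). Points are members coloured by stretch, thin vertical lines span the 4 ratios of one 30 Gy library over one 0 Gy library, and black bars are stretch medians at 0.12, -1.06, -0.41 and 0.03. All 22 members from PARVA to MUC15 lie below 0.

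All 160 members could be tested in the fit over all genes, with limma on log2(FPKM + 1). At a Benjamini-Hochberg adjusted p under 0.05, 50 members (31.25%) were lower at 30 Gy and 20 (12.5%) were higher. Of all genes tested, 9.06% were called lower and 10.8% higher. Of the 8707 protein-coding genes of the whole genome with a mean of at least 3 FPKM, 10.7% were called lower and 13.4% higher. The libraries did not overlap, with both 30 Gy libraries below both 0 Gy libraries, for 82 members (32.3% of all genes tested), and in the other direction for 52 members (32.9% of all genes tested). As a share of each stretch in order from the tip, 7.89%, 95.5%, 51.2% and 5.26% of members were called lower, and 18.4%, 0%, 6.98% and 15.8% higher. These shares are given as a description, since the arm and the stretches were chosen on this contrast. How many members were called depended strongly on the 0 Gy libraries and on the filter on low values. With either 0 Gy library left out and the same genes tested, limma called 0 of 13379 genes and 0 members, while 51 and 54 members were lower and 24 and 21 higher at an unadjusted p under 0.05. With 30 Gy replicate 1 left out, 33 members were called lower and 6 higher, and with 30 Gy replicate 2 left out, 34 and 9. With the filter on low values redone on the remaining 3 libraries, an alternative added after the data were seen, 28 and 27 members were called lower and 4 and 5 higher without 0 Gy replicate 1 and 2.

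The long arm of the same chromosome had no lower median. Its 315 expressed protein-coding genes had a median log2 ratio of 0.05, with 26 called lower and 49 higher. The first 20 of them beyond the centromere had a median of 0.08, with 2 called lower and 4 higher.

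Reads summed over the members gave the same picture in every library. The 22 members from PARVA to MUC15 took 1889 and 2016 RPM (recovered reads scaled to the library's total) in the 30 Gy libraries, against 4294 and 4198 in the 0 Gy libraries. Both 30 Gy sums were under the 0 Gy sums by more than the gap between libraries of one dose. In bulk RNA, fewer cells carrying these transcripts and less RNA per cell cannot be told apart. The 43 members from CCDC34 to AMBRA1 took 3152 and 3185 RPM at 30 Gy and 4042 and 4139 at 0 Gy. The members from BET1L to MICAL2 took 8240 and 8016 at 30 Gy and 7723 and 7652 at 0 Gy, and those from ATG13 to PTPRJ took 1666 and 1644 at 30 Gy and 1622 and 1661 at 0 Gy. In the last stretch the doses overlapped.

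**Figure D2:**
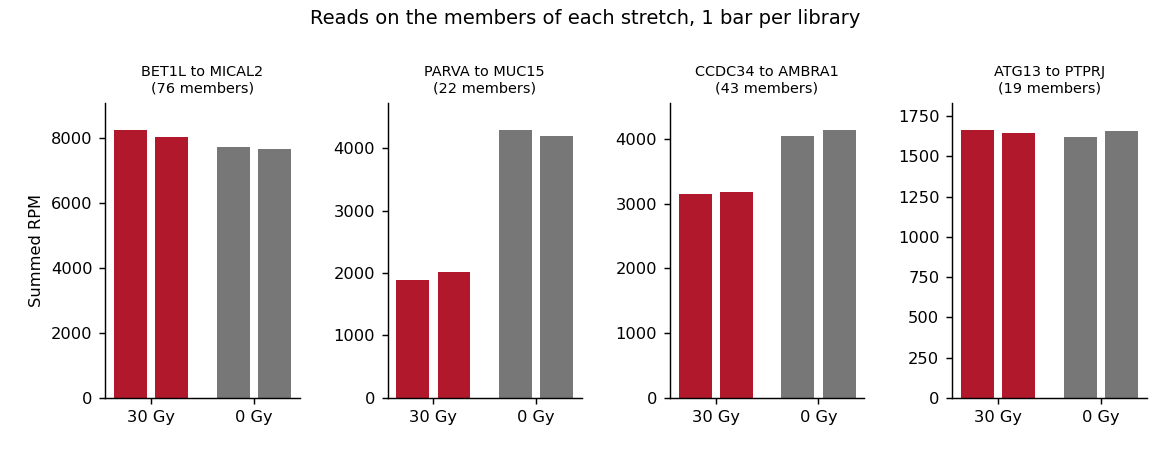
RPM (y axis, from 0, a separate scale per panel) summed over the members of each stretch, with 1 bar per library and the 30 Gy libraries left of the 0 Gy libraries. From PARVA to MUC15 the 30 Gy bars stand at 1889 and 2016 and the 0 Gy bars at 4294 and 4198, while in the last panel all 4 bars lie between 1622 and 1666.

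The first step fell between MICAL2 (chr11:12094008-12359144, plus strand) and PARVA (chr11:12377185-12535356, plus strand), 18.04 kb apart. MICAL2, an oxidoreductase that acts on actin filaments, had 14.05 and 13.7 FPKM at 30 Gy, against 12.3 and 12.8 FPKM at 0 Gy. PARVA, alpha-parvin, links integrins to actin through the kinase ILK at focal adhesions, and it had 15.7 and 15.8 FPKM at 30 Gy, against 38.5 and 39.6 FPKM at 0 Gy. So these neighbours stood at similar levels at 30 Gy, while at 0 Gy PARVA stood well above MICAL2. PARVA was 2.48-fold lower at 30 Gy by mean FPKM (log2 change -1.26 ± 0.06 SE, limma adjusted p = 0.00143), and MICAL2 did not pass the test (log2 change 0.14 ± 0.06 SE, limma adjusted p = 0.193). On the tip side of MICAL2, USP47, a deubiquitinase, had 9.23 and 10.005 FPKM at 30 Gy and 9.71 and 10.4 FPKM at 0 Gy, which overlap. ZBED5, a gene derived from a DNA transposon, had 6.03 and 6.80 FPKM at 30 Gy and 5.14 and 5.19 FPKM at 0 Gy. Beyond PARVA, BTBD10, a BTB-domain protein, had 13.5 and 15.8 FPKM at 30 Gy and 26.5 and 26.7 FPKM at 0 Gy, and FAR1, which makes the fatty alcohols used for ether lipids in peroxisomes, had 15.9 and 18.1 FPKM at 30 Gy and 34.1 and 35.9 FPKM at 0 Gy. The change of level at this step was thus between single neighbours, with no gradual passage among the members on either side. Genes left out by the rule were less clear-cut. DKK3, between USP47 and MICAL2, had a log2 ratio of -1.61. Between PARVA and BTBD10, TEAD1 had -0.76 and was called lower, and ARNTL had -0.47 and was not called.

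**Figure D3:**
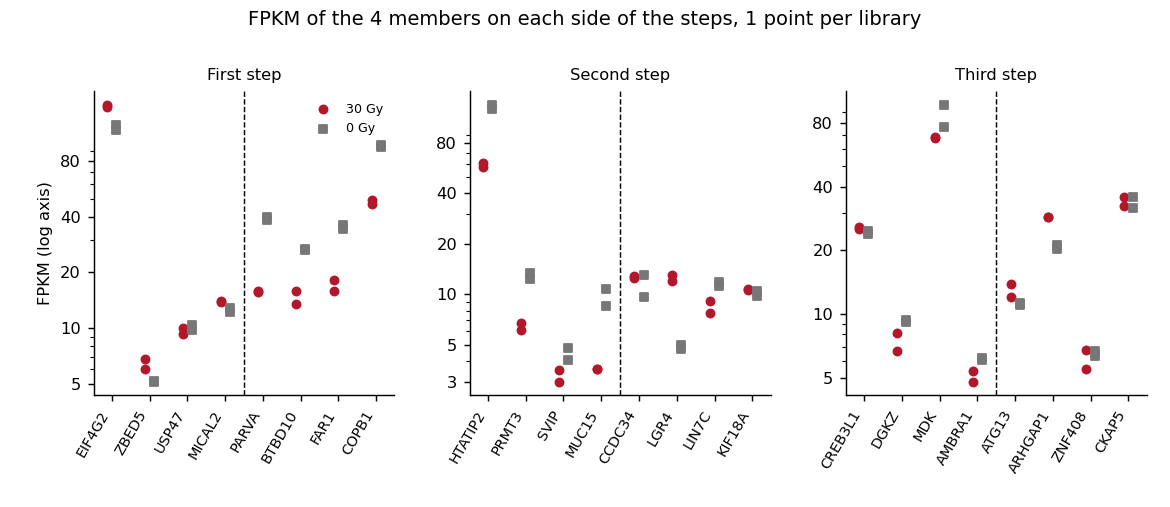
FPKM (y axis, log scale) of the 4 members on each side of the 3 steps (x axis, in order of gene start), with 1 point per library, 30 Gy left of 0 Gy for each member, and the step as a dashed line. At the first step PARVA stands at 15.7 and 15.8 FPKM at 30 Gy and at 38.5 and 39.6 FPKM at 0 Gy, and MICAL2 at 14.05 and 13.7 FPKM at 30 Gy and at 12.3 and 12.8 FPKM at 0 Gy.

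The second step lay between MUC15 and CCDC34, which are 0.759 Mb apart in a part of the arm with few expressed genes. MUC15, a membrane mucin, had 3.59 FPKM in both 30 Gy libraries, against 8.48 and 10.8 FPKM at 0 Gy. SVIP, which inhibits the degradation of endoplasmic reticulum proteins through the ATPase VCP, had 3.01 and 3.54 FPKM at 30 Gy, against 4.80 and 4.04 FPKM at 0 Gy. It was the 1 member of its stretch that did not pass the test (log2 change -0.34 ± 0.12 SE, limma adjusted p = 0.101). On the other side, CCDC34 had 12.6 and 12.9 FPKM at 30 Gy and 13.02 and 9.69 FPKM at 0 Gy, which overlap. LGR4, a receptor for R-spondins in Wnt signalling, was higher at 30 Gy, and LIN7C, a cell polarity scaffold, had 7.76 and 9.08 FPKM at 30 Gy and 11.3 and 11.9 FPKM at 0 Gy. The third step lay between AMBRA1 and ATG13, 23.4 kb apart, both of which act in the start of autophagy, the process in the study's title. AMBRA1 had 5.37 and 4.78 FPKM at 30 Gy and 6.22 and 6.07 FPKM at 0 Gy, and ATG13 had 13.9 and 12.01 FPKM at 30 Gy and 11.3 and 11.05 FPKM at 0 Gy. Neither passed the test (limma adjusted p = 0.110 for AMBRA1 and 0.181 for ATG13). DGKZ, a diacylglycerol kinase, and MDK, the growth factor midkine, on the AMBRA1 side and ZNF408 on the ATG13 side did not pass either, and ARHGAP1 was higher at 30 Gy with 28.7 and 28.6 FPKM, against 20.3 and 21.3 FPKM at 0 Gy.

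The steps differed in how well they held. In 17 other ways of placing them (another fit, penalty or minimum run length, other limits on the members, single library pairs, a library left out), the first step fell at PARVA in 17, the second at CCDC34 in 12 and the third at ATG13 in 6. In the other settings the step before ATG13 was absent, or it moved toward the tip, with PEX16, EXT2 or HSD17B12 as the last member before it. With members down to 1 FPKM it fell between AMBRA1 and HARBI1, within the same gap. The second step, where not at CCDC34, fell between PRMT3, which ends at 20.5 Mb, and SVIP. With members down to 1 FPKM it fell between MUC15 and SLC5A12. The end of the low stretch is therefore less certain than its start. With the stretches kept as they are, the 4 ratios of one 30 Gy library over one 0 Gy library had medians of 0.043 to 0.21 from BET1L to MICAL2, -1.11 to -0.99 from PARVA to MUC15, -0.44 to -0.37 from CCDC34 to AMBRA1, and 0.012 to 0.029 from ATG13 to PTPRJ, on the log2 scale. All 4 libraries had entered the choice of the arm, so these ranges describe the spread between libraries and give no independent support.

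The 22 members from PARVA to MUC15, at 12.4 to 26.6 Mb, include genes of many roles, and 21 of them were called lower by limma. Their log2 ratios ran from -1.69 in PLEKHA7 to -0.43 in SVIP, with the middle of the distribution between -1.24 and -0.86. In the cytoskeleton and adhesion group, 4 members lie here and all were called lower. PLEKHA7, an adherens junction protein, had 2.15 and 1.98 FPKM at 30 Gy, against 6.78 and 6.53 FPKM at 0 Gy, a 3.22-fold lower level (log2 change -1.32 ± 0.08 SE, limma adjusted p = 0.00246). SERGEF, named as a regulator of secretion with a guanine nucleotide exchange domain, had 3.26 and 3.98 FPKM at 30 Gy and 10.1 and 10.5 FPKM at 0 Gy. NAV2, a neuron navigator protein, had 8.05 and 7.87 FPKM at 30 Gy and 14.02 and 14.6 FPKM at 0 Gy. These groups do not overlap for any of the 4.

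Members for the secretory and endosomal pathways fell by similar proportions. COPB1, a subunit of the coat of Golgi transport vesicles, had 46.7 and 49.0 FPKM at 30 Gy, against 94.8 and 96.8 FPKM at 0 Gy, a ratio of 0.4995 (log2 change -0.99 ± 0.06 SE, limma adjusted p = 0.00218). TSG101, which sorts ubiquitinated cargo in the ESCRT complex, had 20.2 and 21.3 FPKM at 30 Gy and 45.7 and 42.6 FPKM at 0 Gy. PIK3C2A, a lipid kinase of endocytic membranes, had 7.49 and 7.64 FPKM at 30 Gy and 15.5 and 16.4 FPKM at 0 Gy. The ratios of these 3 members lay between 0.469 and 0.4995. HPS5, which serves the making of lysosome-related organelles, was nearer to its 0 Gy level, with 8.24 and 8.54 FPKM at 30 Gy and 15.04 and 15.7 FPKM at 0 Gy. NUCB2, a calcium-binding protein and the precursor of nesfatin-1, had 10.4 and 12.5 FPKM at 30 Gy and 26.8 and 27.2 FPKM at 0 Gy.

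Members for transcription, repair and translation were lower as well. GTF2H1, a subunit of TFIIH, which opens DNA for transcription and for nucleotide excision repair, had 10.8 and 12.4 FPKM at 30 Gy, against 29.5 and 28.8 FPKM at 0 Gy, a 2.51-fold lower level (log2 change -1.26 ± 0.08 SE, limma adjusted p = 0.00273). PRMT3, an arginine methyltransferase of ribosomal proteins, had 6.16 and 6.77 FPKM at 30 Gy and 13.4 and 12.4 FPKM at 0 Gy. SPTY2D1, a histone chaperone, had 5.24 and 5.79 FPKM at 30 Gy and 9.82 and 11.1 FPKM at 0 Gy. Within each of these the libraries of a dose were close. RPS13, a protein of the small ribosomal subunit, was the exception, with 85.2 and 106 FPKM at 30 Gy and 258 and 192 FPKM at 0 Gy (log2 change -1.22 ± 0.17 SE, limma adjusted p = 0.0140). Its groups do not overlap, but it has processed copies elsewhere in the genome that the counting could have mixed with it. HTATIP2, an oxidoreductase also called TIP30, had 57.6 and 60.5 FPKM at 30 Gy and 135 and 128 FPKM at 0 Gy. UEVLD, which has a ubiquitin-conjugating-like domain, and SAAL1 were the least lowered of those called, with ratios of 0.622 and 0.671. C11orf58 had a ratio of 0.471 and ZDHHC13, a palmitoyltransferase, 0.560.

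Genes of the same interval that the rule did not admit were lower too. The 9 left-out protein-coding genes there were all lower at 30 Gy in both libraries, 8 of them called, with a median log2 ratio of -0.88. Over all genes tested, 9.06% were called lower. The rule names these 9 genes, and the arm was picked with its ratios known, so the genes of this interval give no independent support. They include PSMA1, a proteasome subunit, with 11.6 and 12.2 FPKM at 30 Gy and 24.9 and 26.4 FPKM at 0 Gy, and LDHA, which interconverts pyruvate and lactate, with 211 and 222 FPKM at 30 Gy and 407 and 389 FPKM at 0 Gy. The 7 genes of other biotypes with a mean of at least 1 FPKM had a median log2 ratio of -1.48. Of these, 7 of 7 had a ratio under 1, and 4 of the 6 that could be tested were called lower. RNU7-49P stood very low, at 1.01 and 0 FPKM at 30 Gy and 1.85 and 2.85 FPKM at 0 Gy, and was not called. SLC5A12, a transporter at 1.81 FPKM between MUC15 and CCDC34, had a log2 ratio of -0.34 and was not called. The antisense transcript AC124798.1 had 2.41 and 1.70 FPKM at 30 Gy and 6.80 and 6.94 FPKM at 0 Gy. Whether the counting used strand is not given in the sources used here, so reads of an antisense gene and of its partner may be mixed. SNORD14A lies within RPS13, AC084117.1 lies within LDHA, and OR7E14P shares exon sequence with PLEKHA7. The genes of other biotypes may therefore not all be separate from genes counted above. On the tip side of the first step, DKK3, a secreted dickkopf protein left out by the rule, was also lower (log2 change -1.57 ± 0.06 SE, limma adjusted p = 0.001), with 22.6 and 21.6 FPKM at 30 Gy and 66.0 and 68.7 FPKM at 0 Gy. USP47 at 11.8 Mb and MICAL2 at 12.1 Mb, on either side of it, were not called.

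**Figure D4:**
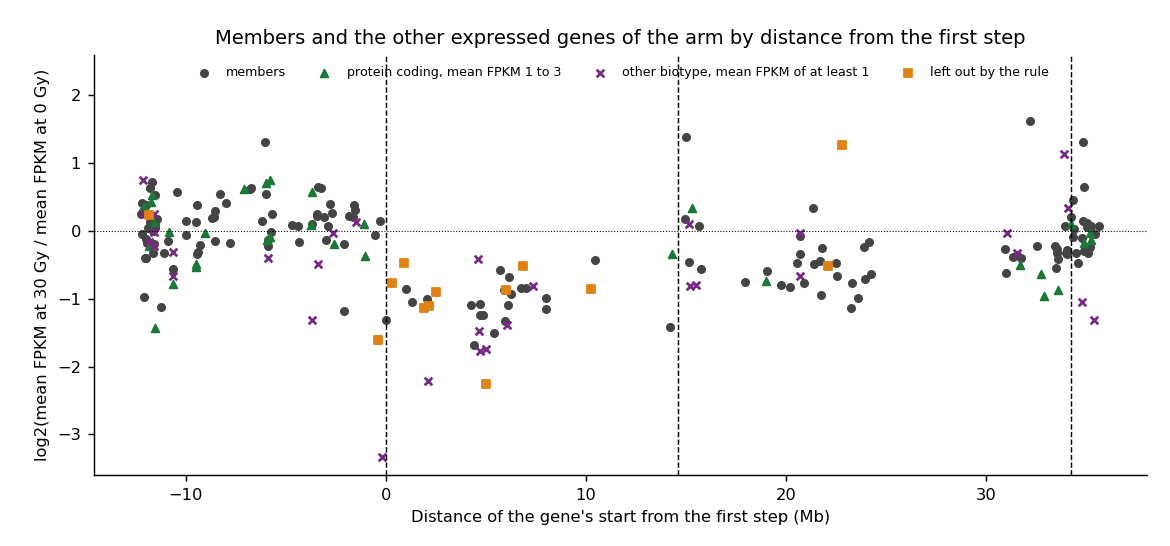
Log2 ratio of mean FPKM at 30 Gy over 0 Gy (y axis) against the distance of each gene's start from the first step in Mb (x axis), for members, protein-coding genes with a mean FPKM of 1 to 3, genes of other biotypes and left-out genes, with the 3 steps as dashed lines. Between the first and second step all 22 members, all 9 left-out genes and all 7 genes of other biotypes lie below 0.

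From CCDC34 to AMBRA1, at 27.3 to 46.6 Mb, 22 of 43 members were called lower, 3 were called higher and 18 did not pass. The middle of their log2 ratios lay between -0.62 and -0.25, a shallower and wider band than in the stretch before. FJX1, the human relative of the fly gene four-jointed, had 15.3 and 13.5 FPKM at 30 Gy, against 31.9 and 31.7 FPKM at 0 Gy, a 2.21-fold lower level (log2 change -1.09 ± 0.08 SE, limma adjusted p = 0.00338). NAT10, an RNA acetyltransferase, had 11.3 and 12.4 FPKM at 30 Gy and 22.7 and 23.0 FPKM at 0 Gy. EIF3M, a subunit of the initiation factor that brings ribosomes to mRNA, had 21.2 and 20.7 FPKM at 30 Gy and 36.3 and 38.2 FPKM at 0 Gy. In each of these 3 the doses were separated by far more than the libraries of a dose. CAPRIN1, an RNA-binding protein of stress granules, fell less, with 51.3 and 55.5 FPKM at 30 Gy and 70.4 and 74.9 FPKM at 0 Gy. RCN1, a calcium-binding protein of the endoplasmic reticulum, had a ratio of 0.578, and PDHX, a component of the pyruvate dehydrogenase complex, 0.631. HIPK3, a protein kinase, and TRIM44 had ratios of 0.585 each, and FBXO3, which selects proteins for ubiquitination, 0.716. EXT2, which builds heparan sulfate chains, had 24.5 and 23.6 FPKM at 30 Gy and 31.8 and 32.0 FPKM at 0 Gy. QSER1 and PHF21A, which act at chromatin, had ratios of 0.718 and 0.749.

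The 3 members called higher in that stretch are all on the list of tetraspanins and surface proteins used below. That list is not complete. LDLRAD3, named after the LDL receptor and not on the list, was called lower in the same stretch, with a log2 ratio of -0.99. CD82, a tetraspanin known as a suppressor of metastasis, had 26.4 and 20.7 FPKM at 30 Gy, against 7.77 and 7.57 FPKM at 0 Gy, a ratio of 3.07 (log2 change 1.49 ± 0.12 SE, limma adjusted p = 0.00426). LGR4 had 12.1 and 13.1 FPKM at 30 Gy, against 4.69 and 4.96 FPKM at 0 Gy, a ratio of 2.61 (log2 change 1.22 ± 0.08 SE, limma adjusted p = 0.00246). CD59, which blocks the membrane attack complex of complement, had 33.7 and 33.6 FPKM at 30 Gy and 26.2 and 26.9 FPKM at 0 Gy. None of these groups overlap. The members on either side of CD82, EXT2 and TP53I11, had log2 ratios of -0.41 and -0.22, those beside CD59, HIPK3 and FBXO3, had -0.77 and -0.48, and those beside LGR4, CCDC34 and LIN7C, had 0.17 and -0.46. Of 2 left-out genes in the interval, CAT, the enzyme catalase, was lower at 14.8 ± 0.804 FPKM at 30 Gy and 21.2 ± 0.139 FPKM at 0 Gy, and CD44, a hyaluronan receptor, was higher at 68.1 ± 2.22 FPKM at 30 Gy and 28.2 ± 1.02 FPKM at 0 Gy (SD, n = 2 each). The 7 protein-coding genes at 1 to 3 FPKM had a median log2 ratio of -0.63, with 3 called lower. The 9 genes of other biotypes at a mean of at least 1 FPKM had a median log2 ratio of -0.038, with 6 below and 3 above a ratio of 1 and 1 called lower, and so did not follow the stretch's median.

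From the tip to MICAL2, 14 of 76 members were called higher and 6 lower. CAVIN3, a coat protein of caveolae, had 54.1 and 44.1 FPKM at 30 Gy, against 18.8 and 20.5 FPKM at 0 Gy, the ratio of 2.49 being the highest of the stretch (log2 change 1.27 ± 0.11 SE, limma adjusted p = 0.00511). RRM1, the large subunit of ribonucleotide reductase, had 39.0 and 40.1 FPKM at 30 Gy and 27.4 and 27.1 FPKM at 0 Gy. EPS8L2, which binds actin, had 11.5 and 10.3 FPKM at 30 Gy and 6.61 and 6.64 FPKM at 0 Gy. These 3 rose with no overlap of libraries. DENND5A, an exchange factor for Rab GTPases, NRIP3, and the antiviral and related factors TRIM5 and TRIM6 had ratios of 1.54 to 1.56. CD151, a tetraspanin that binds laminin-binding integrins, had 98.4 and 88.9 FPKM at 30 Gy and 65.9 and 64.1 FPKM at 0 Gy. EIF4G2, a translation initiation factor, was the member with the highest FPKM among those called higher, with 156 and 160 FPKM at 30 Gy and 117 and 124 FPKM at 0 Gy. PSMD13, a proteasome subunit, had a ratio of 1.23 (limma adjusted p = 0.0469), a call lost in 5 other fits, at limma adjusted p of 0.0509 to 0.119. The call of TRIM6 was lost in 3 other fits, at 0.057 to 0.152.

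Against this background, 3 members fell by over 2-fold or near it. ADM, the vasodilator peptide adrenomedullin, had 2.49 and 2.59 FPKM at 30 Gy, against 5.92 and 5.63 FPKM at 0 Gy (log2 change -0.94 ± 0.08 SE, limma adjusted p = 0.00465). MUC5AC, a secreted airway mucin, had 6.03 and 5.63 FPKM at 30 Gy, against 12.4 and 12.9 FPKM at 0 Gy (log2 change -0.998 ± 0.07 SE, limma adjusted p = 0.00337). IFITM2, a membrane protein that restricts viral entry, had 11.9 and 7.29 FPKM at 30 Gy and 20.4 and 17.3 FPKM at 0 Gy. IFITM3, its close copy, had 55.9 and 54.9 FPKM at 30 Gy and 79.2 and 67.1 FPKM at 0 Gy. Reads of IFITM2 and IFITM3 can be split between the copies, so their single values are uncertain. Their calls were lost without the trend in eBayes, at a limma adjusted p of 0.0671 for IFITM2 and 0.0761 for IFITM3. CTSD, the lysosomal protease cathepsin D, had 139 and 116 FPKM at 30 Gy and 185 and 194 FPKM at 0 Gy. At the imprinted region near the tip, 7 of 14 listed genes are members, with NAP1L4, a histone chaperone, called higher at a ratio of 1.31, CARS, the cysteine tRNA synthetase, called lower at 0.809, and 5 not called. TALDO1, an enzyme of the pentose phosphate pathway, had 152 and 147 FPKM at 30 Gy and 153 and 145 FPKM at 0 Gy, and RPLP2, a protein of the ribosomal stalk, had 136 and 134 FPKM at 30 Gy and 148 and 115 FPKM at 0 Gy. Both overlap and neither was called. Outside the rule, the 22 protein-coding genes at 1 to 3 FPKM had a median log2 ratio of 0.036. The 14 genes of other biotypes at a mean of at least 1 FPKM had -0.19, with 10 below and 4 above a ratio of 1.

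From ATG13 to PTPRJ, at 46.6 to 48.2 Mb, 15 of 19 members did not pass the test. DDB2, which recognises ultraviolet damage in DNA and is a known target of p53, had 6.75 and 6.98 FPKM at 30 Gy, against 2.91 and 2.62 FPKM at 0 Gy, a ratio of 2.48 (log2 change 1.06 ± 0.08 SE, limma adjusted p = 0.00392). ACP2, a lysosomal acid phosphatase, had 8.49 and 7.31 FPKM at 30 Gy and 4.93 and 5.12 FPKM at 0 Gy. It lies beside DDB2 on the opposite strand, with the 3′ ends of both genes facing each other. The 1 member called lower was CELF1, an RNA-binding protein of splicing and decay, with 12.9 and 12.5 FPKM at 30 Gy and 15.9 FPKM in both 0 Gy libraries. C11orf49 had 6.92 and 5.26 FPKM at 30 Gy and 8.65 and 8.33 FPKM at 0 Gy and did not pass (limma adjusted p = 0.0743). Outside the rule, the 3 protein-coding genes at 1 to 3 FPKM had a median log2 ratio of -0.13. The 2 genes of other biotypes at a mean of at least 1 FPKM had -1.18, below the stretch's median, but both stood low. RF00019 had 1.27 and 2.54 FPKM at 30 Gy and 3.48 and 5.94 FPKM at 0 Gy, and was not called. AC090589.3, a sense-intronic gene, had 0.98 and 0.99 FPKM at 30 Gy and 2.00 and 2.05 FPKM at 0 Gy, and was called lower.

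Sorted by role over the whole arm, most groups held members in several stretches. The counts below are descriptions, beside 9.06% of all genes tested called lower and 10.8% called higher. For protein-coding genes with a mean of at least 3 FPKM these shares were 10.7% and 13.4%. Of 11 ribosome and translation members, 5 were lower and 1 higher, and 4 of the 5 lie between PARVA and AMBRA1. Of 19 cytoskeleton, adhesion and small GTPase members, 7 were lower and 4 higher, with 0 of the 8 before the first step lower and all 4 between PARVA and MUC15. Of 11 vesicle coat, nuclear transport and secretory members, 4 were lower and 0 higher, 2 in each of the middle stretches. Of 10 lysosome, endosome and autophagy members, 4 were lower and 2 higher, SMPD1 and ACP2. Of 13 transcription and RNA processing members, 6 were lower and 0 higher, and of 10 ubiquitin and proteasome members 3 were lower and 1 higher. Of 11 DNA repair, replication and cell division members, 2 were lower, GTF2H1 and PRMT3, and 3 higher, RRM1, NAP1L4 and DDB2. PRMT3 was placed on this list, but the role given for it above is methylation of ribosomal proteins. Of 12 mitochondrion and metabolism members, 1 was lower, PDHX, and 0 higher, about the share over all genes tested for lower calls. Of these 12, 0 lie between PARVA and MUC15, and FAR1, a lipid enzyme called lower there, is not on the list. Of 9 members listed as tetraspanins and surface proteins, 0 were lower and 4 higher. LGR4, CD59 and CD82 lie between CCDC34 and AMBRA1, and CD151 near the tip. The list is not complete, since MUC15, a membrane mucin called lower, is not on it, and neither is LDLRAD3, also called lower. Of 6 interferon-linked members, 2 were lower and 1 higher, and of 4 secreted factors, ADM, NUCB2 and FJX1 were lower and MDK, at 68.9 and 68.2 FPKM at 30 Gy and 97.2 and 76.4 FPKM at 0 Gy, was not called.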

How the data were processed

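The authors deposited gene FPKM values for 4 libraries. RNA was extracted with Trizol and 0.2 ug entered each library, per the labels' protocols, and the submitters' processing notes name hg38. Aligner, counter and annotation: not given in the sources used here. FPKM times gene length gave whole multiples of one step for 100% of values above 0 (tolerance 0.001), from which reads were recovered. limma 3.58.1 (R 4.3.3; lmFit, eBayes with trend, two-sided) was fitted on log2(FPKM + 1) over the 13379 genes that reached an FPKM of 1 in 2 or more libraries, with Benjamini-Hochberg adjustment over all of them. Log2 changes (30 Gy minus 0 Gy) come from this fit and are too small for low genes, and log2 ratios use mean FPKM. With 2 libraries a dose the smallest two-sided permutation p is 0.333, so none was run. Steps were placed by least absolute deviations, runs of at least 5 members, and a penalty of 2 times ln(number of members) per added run. Replicate numbers did not pair the libraries (correlation of deviations -0.026, 13379 genes). Libraries of a dose differed by more than sampling noise (mean chi-square per gene 4.96 at 30 Gy and 5.23 at 0 Gy). Scripts were tested on simulated data. Members, lists and tests were chosen with earlier results of these data known. Genes are named if they flank a step, are among the 10 largest falls or rises, lead a role list, lie farthest from their stretch's median, lie at the FPKM limit, or have the highest levels. Other genes named complete a count or stand beside these and were chosen after their values were seen.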

Additional observations from a re-analysis of the deposited data

How the results depend on the processing

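Members called lower numbered 50 and higher 20. Without the filter on low values, 26 were called lower and 7 higher, and among the 86 members with a mean FPKM of at least 10, 31 and 12. Leaving out 1 library with the same genes tested gave 0 to 34 lower and 0 to 9 higher. With the filter redone, added after the data were seen, this gave 28 and 27 lower without 0 Gy replicate 1 and 2, 39 and 38 without 30 Gy replicate 1 and 2, and likewise 4, 5, 10 and 13 higher. With the replicate block, 42 were lower and 18 higher, and the library numbers do not pair the samples. The other fits (pseudocount 0.1, filter at FPKM 5, median centring, quantile normalization, eBayes without trend or robust, voom on recovered reads) stayed within 1.5 times of both counts.

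The median log2 change of the members was -0.13. It was -0.077 at a mean FPKM of at least 10, and -0.18 to -0.11 with 1 library left out. The number of steps was 2 or 3 in every setting. The medians that moved beyond the spread between library pairs mostly belong to runs whose ends moved, so they cover other genes than the stretches of the report (-0.41 from CCDC34 to AMBRA1, 0.026 from ATG13 to PTPRJ). CCDC34 to PTPRJ, as 1 run, had -0.31 with least squares, with the larger penalty and with the left-out genes added back. On log2(FPKM + 1), PARVA to PRMT3 had -0.99 and SVIP to AMBRA1 -0.35. HARBI1 to PTPRJ had -0.030 at a mean FPKM of at least 1, and CREB3L1 to PTPRJ 0.058 at 10. In single pairs, 30 Gy replicate 1 over 0 Gy replicate 2 gave 0.21 before PARVA, -0.59 from CCDC34 to HSD17B12 and -0.13 from ALKBH3 on. 30 Gy replicate 2 over 0 Gy replicate 1 gave 0.043 before PARVA and -0.30 from CCDC34 to PTPRJ, and over 0 Gy replicate 2 it gave -0.99 from PARVA to PRMT3 and -0.31 from SVIP to PTPRJ. With 1 library left out, the run that holds the middle of CCDC34 to AMBRA1 had -0.53 (CCDC34 to EXT2, without 30 Gy replicate 2) to -0.33, and the last run -0.33 to 0.024 (ATG13 to PTPRJ, without 0 Gy replicate 2). The -0.33 is in both cases 1 run from SVIP to PTPRJ, without 30 Gy replicate 1.

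Single genes were refitted for the 71 named in the rule. None of the 56 called among them turned its direction, but calls were lost: 25 without the filter, 7 without trend (PSMD13, IFITM2, IFITM3, CARS, TRIM6, LIN7C and QSER1), 6 with the replicate block (PSMD13, IFITM3, CARS, TRIM6, FBXO3 and PHF21A), 1 each under median centring and quantile normalization (PSMD13) and 1 with robust eBayes (IFITM2). With the same genes tested, calls were also lost when 1 library was left out, more of them without a 0 Gy library than without a 30 Gy library. voom added 6 calls (ZBED5, SVIP, DGKZ, MDK, AMBRA1 and C11orf49). TALDO1, not called, turned to -0.015 under median centring, -0.013 under quantile normalization and -0.014 under voom, and with 1 library left out ran from -0.033 to 0.039. Also not called, and turning with 1 library left out, were RPLP2 (-0.13 to 0.23), CCDC34 (-0.027 to 0.36), TCP11L1 (-0.16 to 0.059) and ZNF408 (-0.21 to 0.048). With 2 libraries a dose, small differences are limited by the spread between libraries, and members near 3 FPKM by their depth. A lone library left in a dose is assumed to vary like the other dose.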
